A study of Homo sapiens with 12 samples.

Results

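Interferon-stimulated genes are the genes that cells switch on when they meet interferon. Those examined here are 42 genes of this kind, chosen by symbol, of the 23346 genes in the deposited expression table. All 42 were in the table and all passed the filter on low values (a mean of at least 0.1 RPKM, reads scaled for gene length and library size), which 16236 genes passed. The study sorted SW1990 and CFPAC-1, established lines of human pancreatic adenocarcinoma, by flow cytometry with GCTM-5, an antibody to a glycoprotein complex of ductal cells, and sequenced polyadenylated RNA. There were 4 groups (SW1990 GCTM-5 negative, SW1990 GCTM-5 positive, CFPAC-1 GCTM-5 negative and CFPAC-1 GCTM-5 positive) of 3 samples each, 12 in all. The cells were monolayer cultures, dissociated and stained with the antibody, the labels list no interferon treatment, and only the strongly positive and the negative cells were gated. Each line is a single established line, so differences between SW1990 and CFPAC-1 are those of 1 line against 1 line. The labels do not say that replicates came from separate cultures, so p-values measure the spread between these samples. The positive against negative comparison in each line asks how the cells with the antigen differ from those without it. The comparison of SW1990 with CFPAC-1 within each gate asks how far the lines differ in the same genes.

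Type I interferons (alpha, beta and others) bind the IFNAR1 and IFNAR2 receptor chains, and type III interferons (lambda) bind IL28RA and IL10RB. Both activate the kinases JAK1 and TYK2, and the transcription factors STAT2 and IRF9 then act in a complex, ISGF3, that binds a short DNA element, the interferon-stimulated response element. Interferon gamma acts through IFNGR1, IFNGR2, JAK1 and JAK2, and its signal reaches another element, the gamma-activated site. The target genes encode RNA sensors, enzymes that degrade RNA, proteins that block entry, translation or budding of viruses, and the ubiquitin-like protein ISG15. Some tumour cell lines express many of these genes in culture with no added interferon.

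The response element has the core GAAANNGAAA, in which N is any base. It was looked for on both strands in the 250 bases before the gene start, in the RefSeq promoter table of GRCh38.p14, which held 32 of the 42 genes (all except *IRF7*, *DHX58*, *OAS2*, *OASL*, *IFIT2*, *IFITM2*, *MX2*, *GBP2*, *USP18* and *TRIM22*). The core was present in 21 of the 32 (65.6%), as compared with 1014 of all 27305 genes (3.71%). The core of the gamma-activated site, TTCNNNGAA, which may overlap the former, was present in 10 of the 32 (31.2%) and in 8.09% of all genes. Stretches can be shown only for genes with a match. *DDX58* and *SAMD9L*, which differed in their response to the sort, had none. Neither did *CMPK2*, *HERC6* and *XAF1*, which were much higher in SW1990 than in CFPAC-1. The stretches shown are those of *ISG15*, the best known member, and of *IFIT1*, *IFI27* and *EPSTI1*, also much higher in SW1990. The others are those of 7 genes that differed by sort or in their response to the sort. All stretches read 5′ to 3′ along the strand of the gene, with the core in capitals. A core on the other strand appears as TTTCNNTTTC.

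ISG15, chr1:1013364-1013419, plus strand: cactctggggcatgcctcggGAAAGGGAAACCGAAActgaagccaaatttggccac
IFIT1, chr10:89392487-89392549, plus strand: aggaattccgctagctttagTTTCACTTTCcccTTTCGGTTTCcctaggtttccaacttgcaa
IFI27, chr14:94110608-94110670, plus strand: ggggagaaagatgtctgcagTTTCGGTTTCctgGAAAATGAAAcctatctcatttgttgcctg
EPSTI1, chr13:42992262-42992311, minus strand: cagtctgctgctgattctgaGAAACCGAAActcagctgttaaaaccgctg
RSAD2, chr2:6877612-6877661, plus strand: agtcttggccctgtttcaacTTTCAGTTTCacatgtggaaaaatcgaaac
OAS3, chr12:112938311-112938473, plus strand: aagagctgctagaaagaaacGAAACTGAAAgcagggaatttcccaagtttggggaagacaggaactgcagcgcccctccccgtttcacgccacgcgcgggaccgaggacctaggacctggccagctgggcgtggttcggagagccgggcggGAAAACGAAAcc
IFITM1, chr11:313980-314029, plus strand: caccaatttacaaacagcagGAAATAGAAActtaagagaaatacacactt
IFITM3, chr11:320866-320932, minus strand: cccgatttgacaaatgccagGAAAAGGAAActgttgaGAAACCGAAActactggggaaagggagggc
GBP1, chr1:89065306-89065355, minus strand: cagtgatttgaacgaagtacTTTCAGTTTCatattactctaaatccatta
BST2, chr19:17405725-17405780, minus strand: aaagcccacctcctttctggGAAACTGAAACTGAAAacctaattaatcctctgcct
SAMD9, chr7:93118086-93118135, minus strand: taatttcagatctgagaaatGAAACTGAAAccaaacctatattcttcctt

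In *ISG15* and *BST2* a pair of matches overlapped in a single run of capitals. *IFITM3* had separate matches 52 and 35 bases before the gene start, whereas *IFITM1* had a single match at 40 bases. *OAS3* had matches at 143 and 12 bases. A match is a string of letters and says nothing of binding in these cells.

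Libraries held 9969697 to 26159330 reads, as recovered from the RPKM values, with the fewest in CFPAC-1 positive replicate 3. No member rested on fewer than 43 reads in any sample. All 6 ductal epithelial markers reached 1 RPKM in every group. Their summed level was 1595 to 1942 RPKM in SW1990 negative, 4360 to 4841 in SW1990 positive, 5411 to 6173 in CFPAC-1 negative and 6676 to 8162 in CFPAC-1 positive samples, and 5 of the 6 rose in SW1990 positive cells. The 10 immune markers, mostly *CD68*, summed to 35.1 to 49.1 RPKM in SW1990 negative, 15.6 to 33.3 in SW1990 positive, 119 to 137 in CFPAC-1 negative and 112 to 167 in CFPAC-1 positive samples. The T cell, B cell and NK cell markers *CD3D*, *MS4A1* and *FCGR3A* were listed at 0 in all 12 samples. The 6 fibroblast markers summed to 12.7 to 22.6 RPKM in SW1990 negative and 3.90 to 4.86 in SW1990 positive samples, and to at most 2.39 in CFPAC-1. The 4 endothelial markers summed to 14.8 to 18.8, mostly *CDH5*, then 1.47 to 2.05 in SW1990, and to at most 1.49 in CFPAC-1. In CFPAC-1 2 immune markers were lower in positive cells, *CD14* (9.23 ± 0.535 to 3.19 ± 0.966 RPKM, SD, n = 3, log2 fold change -1.54) and *NKG7* (on 0 to 3 reads a sample), and in SW1990 *CD14* (-1.97) and *CD68* (-1.02) were. In SW1990 all of these lists moved with the sort. In CFPAC-1 the summed ductal epithelial level was higher in all positive than in all negative samples, with none of its markers called. The summed immune level overlapped there, although 2 immune markers were lower. The part of these shifts in the results given here was not tested.

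The interferon-stimulated genes were expressed in every group, and much more highly in SW1990 than in CFPAC-1. The median RPKM over the 42 genes was 62.6, 69.9 and 62.7 in the SW1990 negative samples and 48.9, 56.2 and 46.3 in the SW1990 positive samples. In CFPAC-1 it was 19.3, 20.9 and 21.9 in the negative and 17.1, 18.2 and 21.7 in the positive samples, whereas the median of all fitted genes was 6.02 to 7.19 in every sample. The 42 genes took 1.31%, 1.44% and 1.37% of reads in SW1990 negative samples and 1.03%, 1.22% and 1.07% in SW1990 positive samples. They took 0.482%, 0.515% and 0.507% in CFPAC-1 negative and 0.293%, 0.343% and 0.469% in CFPAC-1 positive samples. In SW1990 27, 27 and 28 of the 42 in negative and 22, 24 and 21 in positive samples had an RPKM above the cut for the top decile of fitted genes (40.8 to 46.0 RPKM). In CFPAC-1 11, 12 and 11 did in negative and 7, 10 and 13 in positive samples.

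**Figure D1:**
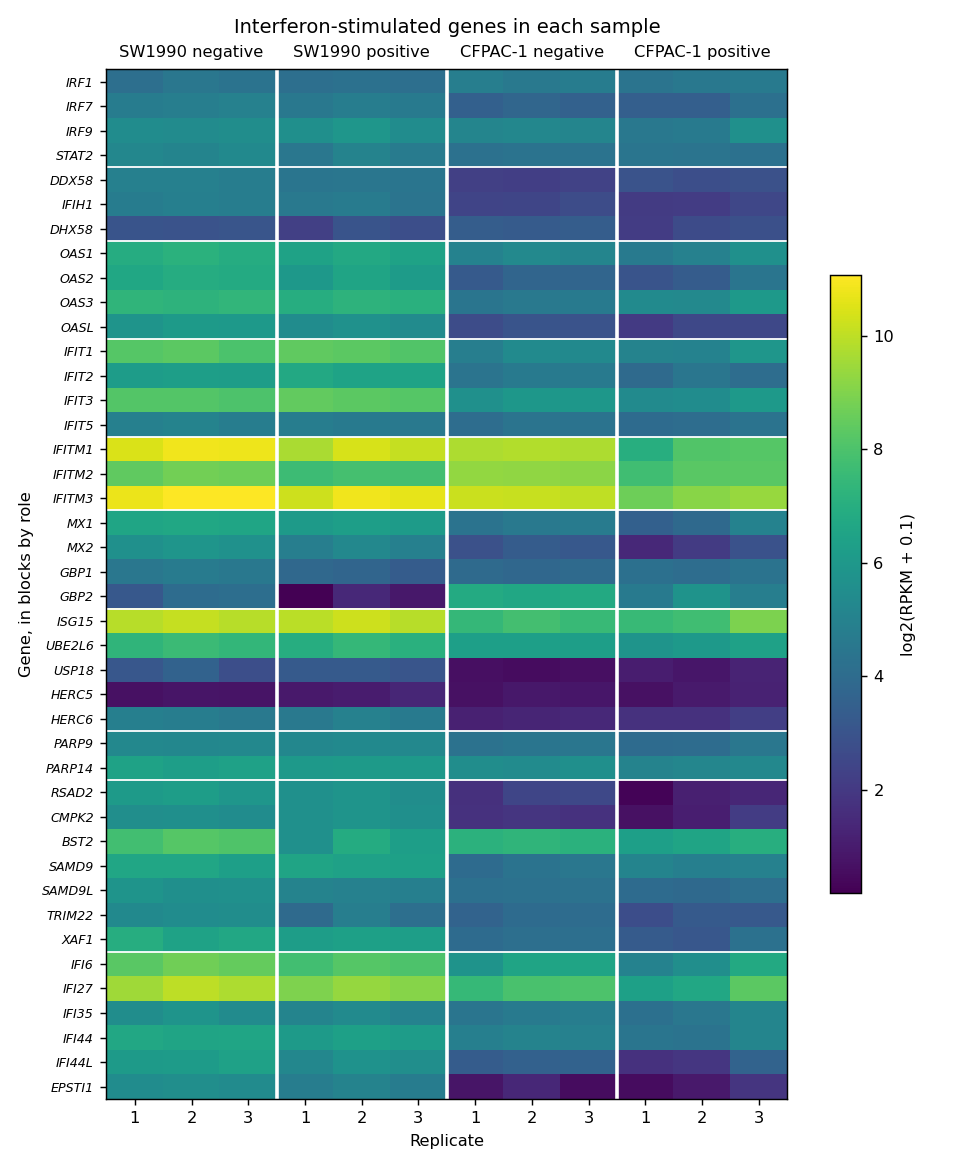
Level of each of the 42 genes (rows, in blocks by role) in each of the 12 samples (columns, replicates 1 to 3 of each group), as log2(RPKM + 0.1) on the colour scale. Most rows are brighter in the 6 SW1990 samples on the left, and *GBP2* is the clearest row with the opposite pattern.

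A gene was called higher or lower when limma gave over 2-fold change and an unadjusted p below 0.01, on log2(RPKM + 0.1). This scale understates the fold change of low genes. In negative cells 27 of the 42 genes (64.3%) were called higher in SW1990 than in CFPAC-1, and 21.9% of all genes tested were. Only *GBP2* (2.38%) was called lower among the members, and 15.0% of all genes were. In positive cells 28 of 42 (66.7%) were higher, beside 14.8% of all genes, and again 1, *GBP2*, was lower, beside 13.7% of all genes. The median log2 fold change over the members was 1.76 in negative and 1.53 in positive cells, beside 0.19 and 0.06 over all genes. The counts of higher genes were 26 to 36 in negative and 26 to 34 in positive cells over all alternative settings. The upper values are those at an unadjusted limma p below 0.01 with no limit on fold. By that rule 36.9% and 28.7% of all genes were higher. In bulk samples, fewer cells with a transcript and less transcript per cell cannot be told apart.

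Of the transcription factors, *IRF9*, the DNA-binding subunit of ISGF3, had the highest level. It was at 44.0, 43.1 and 45.2 RPKM in SW1990 negative, 47.9, 59.0 and 44.4 in SW1990 positive, 34.7, 37.6 and 35.1 in CFPAC-1 negative, and 23.3, 24.9 and 50.1 in CFPAC-1 positive samples. The SW1990 negative samples were all above the CFPAC-1 negative samples, but the log2 difference of 0.30 ± 0.23 (SE) was not called, and the positive samples of the lines overlapped. *STAT2* differed by 0.91 and *IRF1*, a factor that interferon gamma induces, by -0.40 in negative cells, neither of them called. *IRF7*, which drives interferon alpha genes, was higher in SW1990 negative cells (29.0 ± 2.36 against 12.1 ± 1.20 RPKM, SD, n = 3, log2 difference 1.26), and was not called in positive cells (0.93).

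Among the sensors of viral RNA, *DDX58* (RIG-I, annotated as *RIGI*) was at 30.3, 30.6 and 27.5 RPKM in SW1990 negative and 4.69, 4.44 and 4.88 in CFPAC-1 negative samples. It was at 21.1, 22.0 and 21.5 in SW1990 positive and 7.76, 6.94 and 7.25 in CFPAC-1 positive samples. The lines did not overlap, and the log2 difference was 2.63 ± 0.08 (SE) in negative and 1.55 ± 0.08 in positive cells (limma adjusted p = 2.34e-10 and 2.35e-08). *IFIH1* (MDA5), the sensor of long RNA, was higher in SW1990 by 2.29 and 2.34 on the log2 scale. *DHX58* (LGP2), which has no signalling domain, was at 7.88 ± 0.264 RPKM in SW1990 negative and 10.2 ± 0.243 in CFPAC-1 negative cells (SD, n = 3), a difference that was not called.

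All 4 genes of the oligoadenylate synthetase family were higher in SW1990 in both gates. Of these, *OAS1*, *OAS2* and *OAS3* encode enzymes that sense double-stranded RNA and make the activator of RNase L. *OAS3* was at 158, 149 and 161 RPKM in SW1990 negative and 126, 147 and 137 in SW1990 positive samples. CFPAC-1 values were 21.2, 24.2 and 25.5 in the negative and 41.6, 39.4 and 67.0 in the positive samples. Its log2 difference between lines was 2.72 ± 0.17 (SE) in negative and 1.51 ± 0.17 in positive cells (limma adjusted p = 3.56e-08 and 7.94e-06). In negative cells *OAS1*, *OAS2* and *OASL* were higher by 1.83, 3.24 and 3.09.

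Of the IFIT proteins, which bind viral RNA and block its translation, *IFIT1*, *IFIT2* and *IFIT3* were higher in SW1990 in both gates, by 1.69 to 2.99 on the log2 scale, and *IFIT5* (0.68 and 0.57) was not called. *IFIT3* was at 287, 286 and 260 RPKM in SW1990 negative, 349, 318 and 296 in SW1990 positive, 49.4, 62.1 and 61.1 in CFPAC-1 negative, and 41.8, 44.9 and 66 in CFPAC-1 positive samples. The lines were far apart, with a log2 difference of 2.27 ± 0.16 (SE) in negative cells (limma adjusted p = 9.61e-08). *IFIT1*, whose promoter had a pair of cores on the other strand, was at 290 ± 30.8 RPKM in SW1990 negative and 36.9 ± 7.40 in CFPAC-1 negative cells (SD, n = 3). Exons of *IFIT2* and *IFIT3* overlap *LIPA* on the opposite strand. The use of strand in counting is not given in the sources used here, so that shared reads cannot be told apart.

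*ISG15*, which is conjugated to other proteins as ubiquitin is, was at 947, 1125 and 951 RPKM in SW1990 negative and 988, 1204 and 967 in SW1990 positive samples. The CFPAC-1 samples gave 173, 226 and 184 in the negative and 185, 214 and 482 in the positive samples, of which the last stood apart from the other 2. The lines did not overlap (log2 difference 2.38 ± 0.28, SE, in negative cells, limma adjusted p = 1.03e-05). Its conjugating enzyme *UBE2L6* and its protease *USP18* were higher in SW1990 in both gates, as was *HERC6*, of the family of its ligase (3.46 in negative and 2.86 in positive cells). *HERC5*, the human ISG15 ligase, was low in both lines, at 1.58 ± 0.0859 and 1.64 ± 0.143 RPKM in SW1990 and CFPAC-1 negative cells (SD, n = 3), with a log2 difference of -0.05 (95% interval -0.45 to 0.35).

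The lines differed most in *EPSTI1*, *RSAD2* and *CMPK2* among the members in negative cells. *EPSTI1*, with a single core 50 bases before its start, was at 45.3 ± 1.98 RPKM in SW1990 and 1.84 ± 0.607 in CFPAC-1 negative cells (SD, n = 3), a log2 difference of 4.59. *RSAD2* encodes viperin, which makes a chain-terminating nucleotide. It was at 70.1, 75.5 and 60.3 RPKM in SW1990 negative and 50.1, 56.8 and 45.6 in SW1990 positive samples, but at 3.14, 5.38 and 5.67 in CFPAC-1 negative and 1.13, 2.09 and 2.48 in CFPAC-1 positive samples. The log2 difference between lines was 3.87 ± 0.27 (SE) in negative and 4.73 ± 0.27 in positive cells (limma adjusted p = 1e-07 and 2.76e-08). *CMPK2*, a mitochondrial nucleotide kinase and the neighbour of *RSAD2*, was higher by 3.79 and 4.40. Exons of the pair overlap on opposite strands.

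*IFI27*, a small mitochondrial protein, was at 741, 1015 and 840 RPKM in SW1990 negative, 500, 651 and 546 in SW1990 positive, 180, 245 and 262 in CFPAC-1 negative, and 83.1, 104 and 322 in CFPAC-1 positive samples. All SW1990 values lay above all CFPAC-1 values, and the log2 difference in negative cells was 1.93 ± 0.39 (SE, limma adjusted p = 0.000744). *MX1*, a dynamin-like GTPase that blocks influenza virus, was at 96.3, 102 and 96.2 RPKM in SW1990 negative, 69.5, 76.8 and 70.8 in SW1990 positive, 20.2, 24.1 and 26.1 in CFPAC-1 negative, and 11.5, 14.7 and 32.4 in CFPAC-1 positive samples. It too did not overlap between lines (2.07 ± 0.28 in negative cells, limma adjusted p = 3.12e-05). *MX2*, *XAF1*, *IFI6*, *IFI44* and *IFI44L* were called higher in SW1990 in both gates, with log2 differences of 1.62 to 3.08. *PARP14*, an ADP-ribosyltransferase, was at 88.9, 78.1 and 84.9 RPKM in SW1990 negative, 65.2, 68.5 and 67.0 in SW1990 positive, 46.3, 43.3 and 48.2 in CFPAC-1 negative, and 32.6, 35.8 and 38.7 in CFPAC-1 positive samples. The lines did not overlap, but the log2 differences of 0.87 ± 0.08 and 0.91 ± 0.08 stayed below 2-fold. *PARP9* was called in positive cells only (0.85 in negative and 1.10 in positive cells). The difference of those values, 0.24, was not called. Exons of *PARP9* overlap *DTX3L*, and exons of *MX1* overlap *TMPRSS2*, on the opposite strand.

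**Figure D2:**
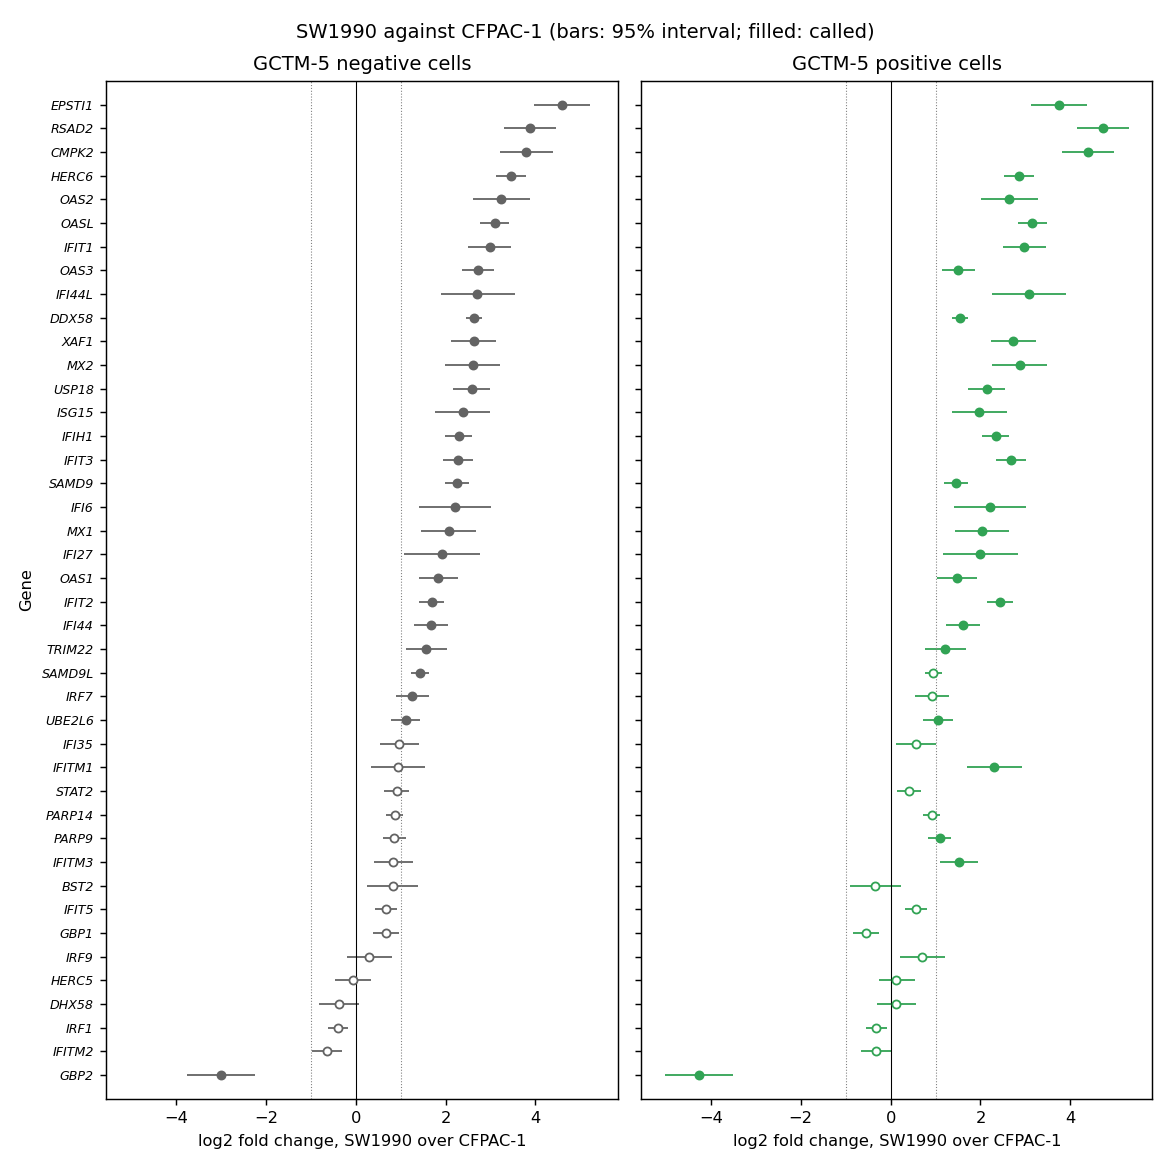
log2 fold change of each of the 42 genes in SW1990 against CFPAC-1 (horizontal axis), in negative cells and in positive cells, with bars for the 95% interval from limma and filled points for called genes. Filled points lie to the right for 27 and 28 genes, and *GBP2* alone is filled on the left, at -3.00 and -4.26.

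The 21 genes with the response element core and the 11 without it were both mostly higher in SW1990. In negative cells 13 of the 21 with a core were called higher, with a median log2 difference of 2.07, and 7 of the 11 without, with a median of 1.43. In positive cells 16 of the 21 (median 1.97) and 6 of the 11 (median 1.06) were. No test was made of these shares.

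Fewer of the 42 genes were called between positive and negative cells. In SW1990 none was higher in positive cells and 3 (7.14%) were lower, *GBP2*, *BST2* and *TRIM22*. At an unadjusted limma p below 0.05 with no limit on fold, 1 was higher, *IFIT2*, and 14 were lower, beside 15.7% and 22.4% of all genes, and voom on recovered reads also called none higher. By the 2-fold rule 4.59% of all genes tested were higher and 7.48% were lower, so that the share of lower members was close to that of all genes. In CFPAC-1 1 member (2.38%), *OAS3*, was higher and 5 (11.9%) were lower, *IFITM1*, *GBP2*, *RSAD2*, *IFITM2* and *IFITM3*, beside 5.65% and 4.13% of all genes. At an unadjusted limma p below 0.05 with no limit on fold, 6 were higher and 16 lower in CFPAC-1, beside 27.6% and 18.7% of all genes. Most members nevertheless lay below 0 in both lines, 33 of 42 in SW1990 and 29 of 42 in CFPAC-1. Of all genes, 45.3% lay above 0 in SW1990 and 54% in CFPAC-1. The median log2 fold change was -0.41 in SW1990, beside -0.04 over all genes, and -0.22 in CFPAC-1, beside 0.05.

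**Figure D3:**
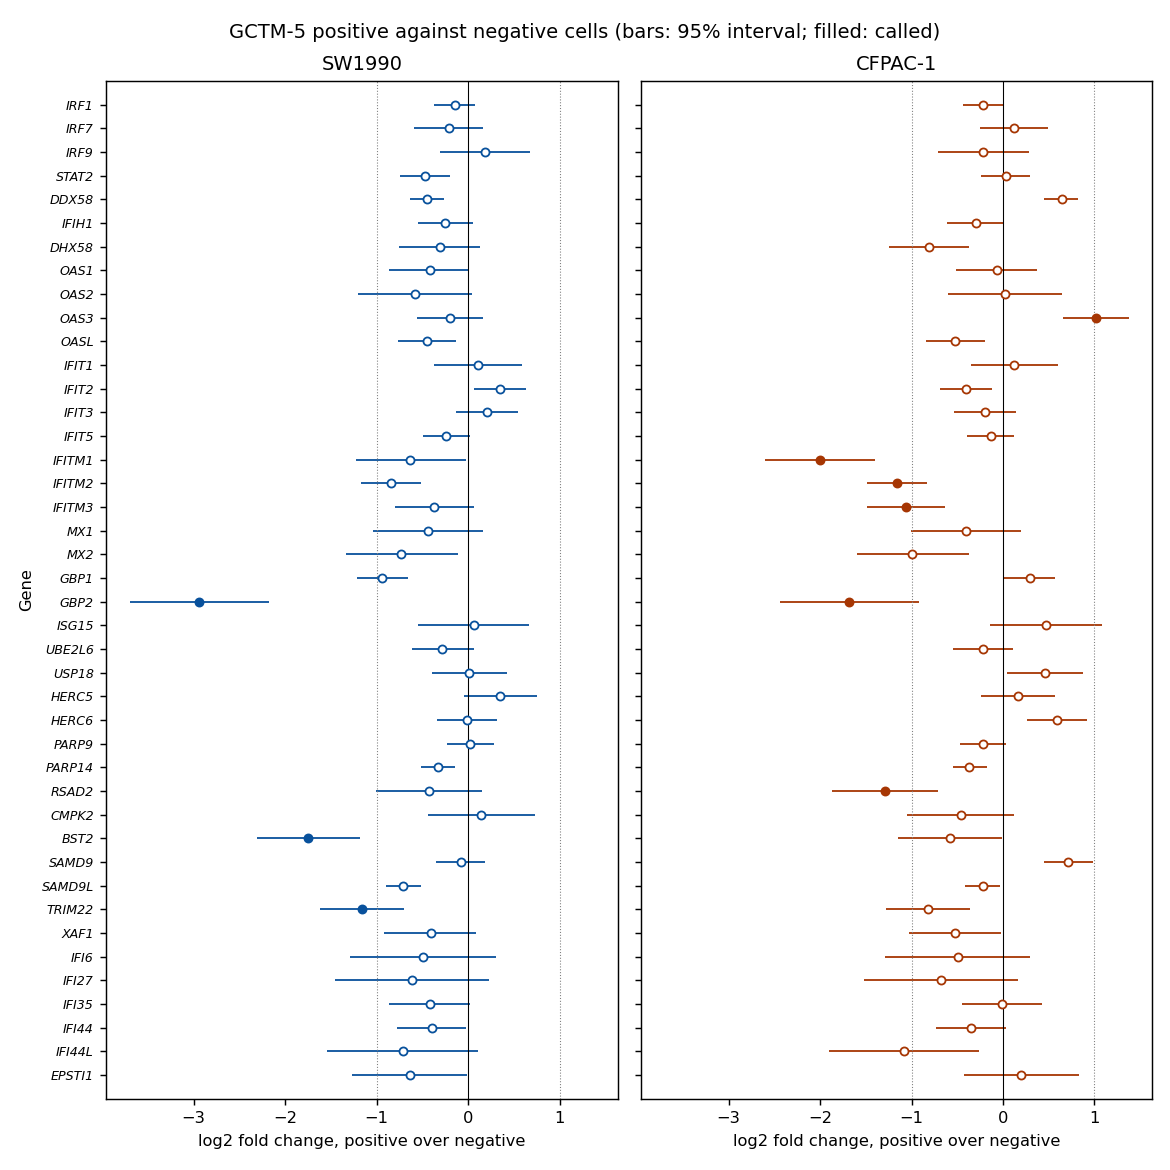
log2 fold change of each of the 42 genes in GCTM-5 positive against negative cells (horizontal axis), in SW1990 and in CFPAC-1, with bars for the 95% interval from limma and filled points for called genes. *GBP2* is filled on the left in both panels (-2.94 and -1.68), and *OAS3* is the only filled point on the right, in CFPAC-1 (1.02).

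*GBP2*, a guanylate-binding GTPase that interferon gamma strongly induces, was the only member called in both lines. It lies on chromosome 1 (GRCh37 89571815 to 89616139, minus strand, GENCODE 44). It was at 8.91, 16.3 and 17.0 RPKM in SW1990 negative and 1.03, 2.57 and 1.74 in SW1990 positive samples. In CFPAC-1 it was at 115, 101 and 111 in the negative and 24.7, 55.2 and 28.6 in the positive samples. All positive values were below all negative values of the same line, and all CFPAC-1 values were above all SW1990 values. The log2 fold change was -2.94 ± 0.35 (SE) in SW1990 (limma adjusted p = 5.63e-05) and -1.68 ± 0.35 in CFPAC-1 (adjusted p = 0.00325). The difference between the lines, -1.26 ± 0.49, was not called (limma adjusted p = 0.0783), but was without SW1990 negative replicate 1 or SW1990 positive replicate 2 (-1.56 in both). An exon of *GBP2* overlaps one of *GBP7* on the same strand.

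Its neighbour *GBP1* (chromosome 1, GRCh37 89517565 to 89531043, minus strand) was at 22.4, 26.2 and 23.2 RPKM in SW1990 negative and 14.5, 13.0 and 10.1 in SW1990 positive samples. CFPAC-1 values were 15.5, 13.8 and 15.4 in the negative and 18.2, 16.6 and 19.9 in the positive samples. The samples of each line did not overlap, in opposite directions. The log2 fold changes of -0.94 ± 0.13 (SE) and 0.29 ± 0.13 were under 2-fold, and their difference of -1.23 ± 0.18 was called (limma adjusted p = 0.000511). The difference between lines in the response to the sort was called at an adjusted p below 0.05, at which 2 members (4.76%) were higher and 6 (14.3%) lower in SW1990 than in CFPAC-1, beside 9.16% and 17.8% of all genes.

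*BST2* (tetherin, chromosome 19, GRCh37 17513748 to 17516439, minus strand) holds budding virions at the cell surface. It was at 221, 292 and 273 RPKM in SW1990 negative and 49.9, 119 and 78.2 in SW1990 positive samples. The CFPAC-1 samples gave 143, 158 and 139 in the negative and 79.6, 92.9 and 128 in the positive samples. Positive samples were below negative samples in both lines, with a call only in SW1990, at -1.75 ± 0.26 (SE, limma adjusted p = 0.000317), and -0.58 ± 0.26 in CFPAC-1. The difference of -1.17 ± 0.37 was called (limma adjusted p = 0.0343), but it was not called in 9 of 21 alternative settings, where adjusted p over all settings ran from 0.00493 to 0.0769.

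*TRIM22*, an E3 ubiquitin ligase (chromosome 11, GRCh37 5710840 to 5758319, plus strand), was at 40.8, 44.9 and 45.7 RPKM in SW1990 negative and 15.1, 28.5 and 17.5 in SW1990 positive samples. In CFPAC-1 it was at 12.5, 15.6 and 16.3 in the negative and 6.65, 9.43 and 9.18 in the positive samples. Both lines had lower values in all positive samples, with log2 fold changes of -1.16 ± 0.21 (SE, limma adjusted p = 0.00136) and -0.82 ± 0.21, the latter under 2-fold. The call in SW1990 was lost without SW1990 positive replicate 1 (log2 fold change -0.97). An exon overlaps *OR56B1* on the same strand.

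The IFITM proteins stop viruses from entering at the membrane, and their genes lie side by side on chromosome 11 (GRCh37, *IFITM2* 303655 to 309397, *IFITM1* 310041 to 315272 and *IFITM3* 319676 to 329475). Their sequences are nearly identical in places, and the sources used here do not give the treatment of reads with more than 1 match, so the split among them is uncertain. *IFITM3* had the highest level of all 42 genes, at 1714, 2156 and 2152 RPKM in SW1990 negative and 1229, 1841 and 1625 in SW1990 positive samples. CFPAC-1 values were 1177, 1146 and 1033 in the negative and 409, 559 and 678 in the positive samples. The groups overlapped in SW1990 (-0.37 ± 0.20, SE) and were far apart in CFPAC-1 (-1.06 ± 0.20, limma adjusted p = 0.00171).

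*IFITM1* was at 1403, 1848 and 1787 RPKM in SW1990 negative and 834, 1357 and 1117 in SW1990 positive samples. The CFPAC-1 samples gave 845, 908 and 854 in the negative and 128, 274 and 292 in the positive samples. Positive samples were lower in both lines without overlap, by 0.63 on the log2 scale in SW1990 (-0.63 ± 0.28, SE, not called) and by 3.99-fold in CFPAC-1 (-2.00 ± 0.28, limma adjusted p = 0.000281). The difference of 1.37 ± 0.39 was called (limma adjusted p = 0.0218), and was lost without SW1990 negative replicate 1 (1.25) or SW1990 positive replicate 2 (1.21).

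*IFITM2* was at 339, 435 and 411 RPKM in SW1990 negative and 199, 234 and 226 in SW1990 positive samples. In CFPAC-1 it was at 640, 617 and 578 in the negative and 213, 308 and 314 in the positive samples. Between lines, *IFITM1* (2.31) and *IFITM3* (1.52) were called higher in SW1990 in positive cells, and neither was called in negative cells (0.94 and 0.84). *IFITM2* too was lower in positive cells of both lines without overlap, at -0.84 ± 0.15 (SE), under 2-fold, in SW1990 and -1.16 ± 0.15 in CFPAC-1 (limma adjusted p = 0.000198). The calls of *IFITM2* and *IFITM3* in CFPAC-1 were lost without CFPAC-1 positive replicate 1 (log2 fold changes -0.97 and -0.86).

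The *RSAD2* values given before did not overlap between positive and negative cells in either line. The log2 fold change was -0.43 ± 0.27 (SE) in SW1990, not called, and -1.29 ± 0.27 in CFPAC-1 (limma adjusted p = 0.00303), on 87 to 138 reads in the positive and 215 to 413 in the negative samples. The CFPAC-1 call was lost without CFPAC-1 positive replicate 1 (-0.98), with a pseudocount of 1 (-0.98), and when each line was fitted alone (-1.29). The difference of 0.86 between lines was not called (limma adjusted p = 0.112), but was without CFPAC-1 negative replicate 1 (1.12) or CFPAC-1 positive replicate 3 (1.08) and with voom on recovered reads (1.04).

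*OAS3* (chromosome 12, GRCh37 113375856 to 113414265, plus strand) was the only member called higher in positive cells, in CFPAC-1, at 1.02 ± 0.17 (SE, limma adjusted p = 0.000738). The value stood close to the 2-fold limit and was called in 17 of 22 alternative settings. It was 0.78, and not called, without CFPAC-1 positive replicate 3, and 0.95 without CFPAC-1 negative replicate 1. In SW1990 positive samples lay below negative samples (-0.20 ± 0.17, not called), and the difference of -1.22 ± 0.23 was called (limma adjusted p = 0.00258).

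*DDX58* (chromosome 9, GRCh37 32455300 to 32526206, minus strand) lay on opposite sides of 0 in the lines, without overlap of the samples given above. The log2 fold change was -0.45 ± 0.08 (SE) in SW1990 and 0.64 ± 0.08 in CFPAC-1 (limma adjusted p = 0.00179 and 0.000229), each under 2-fold. The difference of -1.09 ± 0.12 was called (limma adjusted p = 7.39e-05), and was called in 21 of 21 alternative settings.

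*IFIT2* (chromosome 10, GRCh37 91043451 to 91069028, plus strand) had the reverse pattern. It was at 74.5, 77.0 and 75.5 RPKM in SW1990 negative and 108, 90.3 and 91.6 in SW1990 positive samples. CFPAC-1 values were 20.3, 25.3 and 25.1 in the negative and 15.3, 21.7 and 16.7 in the positive samples, which overlapped. The log2 fold changes were 0.35 ± 0.13 (SE) and -0.40 ± 0.13, neither called, and the difference of 0.75 ± 0.19 was called (limma adjusted p = 0.011).

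*SAMD9* and *SAMD9L* are neighbours on chromosome 7 (GRCh37 92728826 to 92747336 and 92759369 to 92777698, minus strand) and encode related proteins that restrict poxviruses. *SAMD9* was at 97.4, 97.8 and 80.9 RPKM in SW1990 negative and 92.7, 84.9 and 82.6 in SW1990 positive samples, which overlapped. The CFPAC-1 samples gave 15.9, 19.8 and 22.2 in the negative and 34.0, 29.2 and 31.4 in the positive samples, which did not. The log2 fold changes were -0.08 ± 0.12 (SE) and 0.71 ± 0.12, and the difference of -0.80 ± 0.17 was called (limma adjusted p = 0.00556).

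*SAMD9L* was at 55.7, 48.2 and 49.5 RPKM in SW1990 negative and 33.1, 31.3 and 29.5 in SW1990 positive samples. In CFPAC-1 it was at 18.2, 18.7 and 19.6 in the negative and 15.9, 14.9 and 17.6 in the positive samples. Here the positive samples were lower in both lines, at -0.71 ± 0.09 (SE) and -0.22 ± 0.09, both under 2-fold. The difference of -0.48 ± 0.13 was called (limma adjusted p = 0.0154), and was lost with median centring (-0.33, limma adjusted p = 0.0735).

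**Figure D4:**
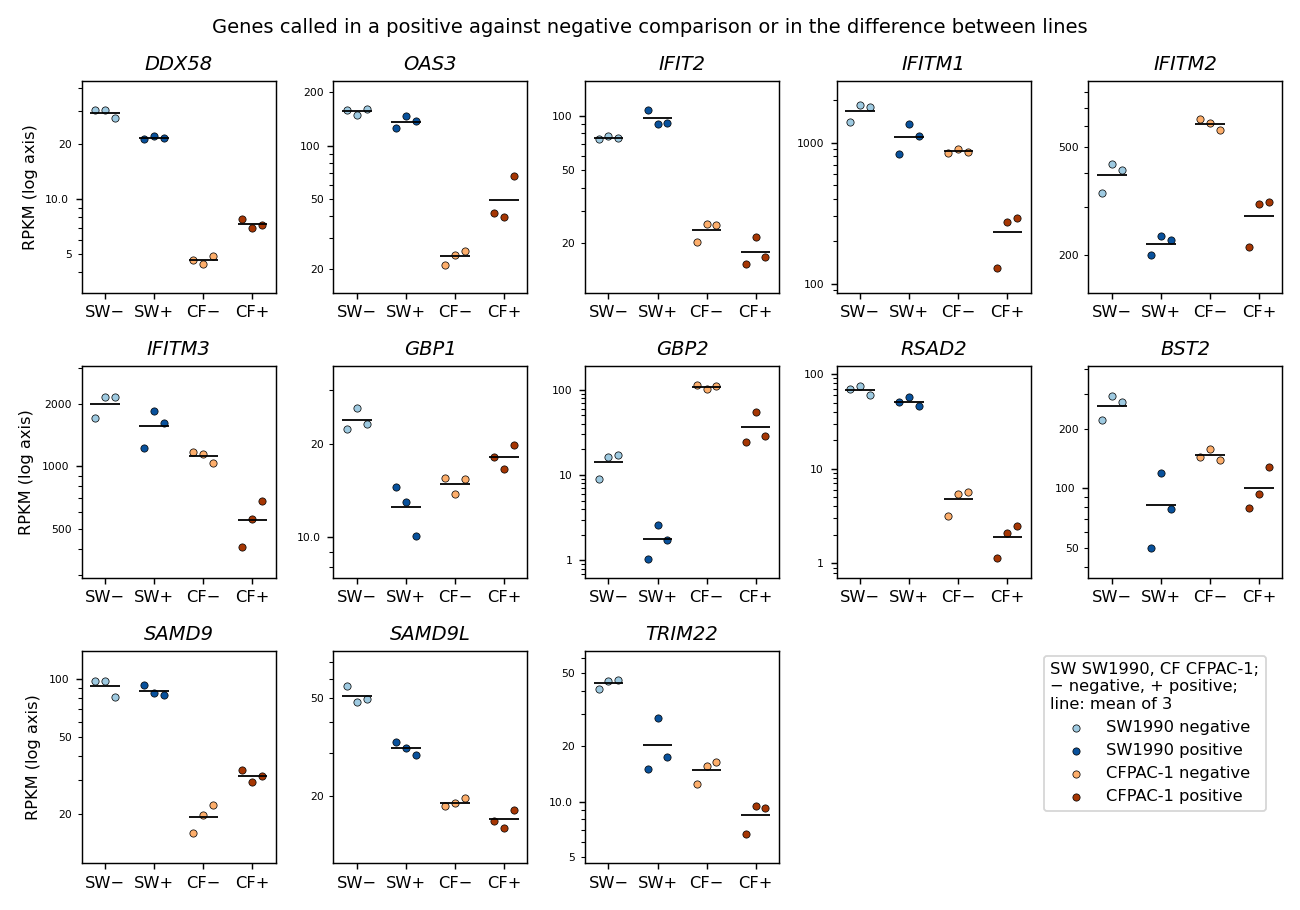
RPKM (log axis) of the 13 genes called in a positive against negative comparison or in the difference between lines, with a point for each of the 3 samples of each group and a line for their mean. Points of *GBP2* lie lower in positive than in negative cells of both lines, and those of *DDX58*, *OAS3* and *GBP1* lie in opposite order in the lines.

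Groups of members with few or no calls in the sort are described by their range. The 4 transcription factors lay between -0.47 and 0.18 on the log2 scale in SW1990 and between -0.22 and 0.12 in CFPAC-1, none called. The 4 IFIT genes lay between -0.24 and 0.35 and between -0.40 and 0.12. The 5 genes of ISG15 conjugation lay between -0.28 and 0.35 and between -0.22 and 0.59. The 6 other interferon-induced genes (*IFI6*, *IFI27*, *IFI35*, *IFI44*, *IFI44L* and *EPSTI1*) lay between -0.71 and -0.40 in SW1990, below 0 without a call, and between -1.08 and 0.20 in CFPAC-1.

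CFPAC-1 positive replicate 3, the shallowest library, stood apart from the other 2 of its group in these genes. It had the highest value of the 3 for 36 of the 42 genes (85.7%), as compared with 38.0% of all genes. Its RPKM over the mean of the other 2 had a median of 1.42 over members and 0.985 over all genes. The ratio exceeded 2 for 11 members (26.2%) and 5.11% of all genes, and was 3.60 for *IFI44L*, 3.44 for *IFI27*, 2.81 for *IFI6*, 2.47 for *MX1*, 2.44 for *CMPK2* and 2.41 for *ISG15*. The lowest ratio was that of *GBP2*, at 0.717. The correlation of this library with the others of its group across genes was 0.968 in both cases (Pearson's r, genes not being independent), and 0.977 to 0.986 within other pairs of replicates. The cause was not tested.

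**Figure D5:**
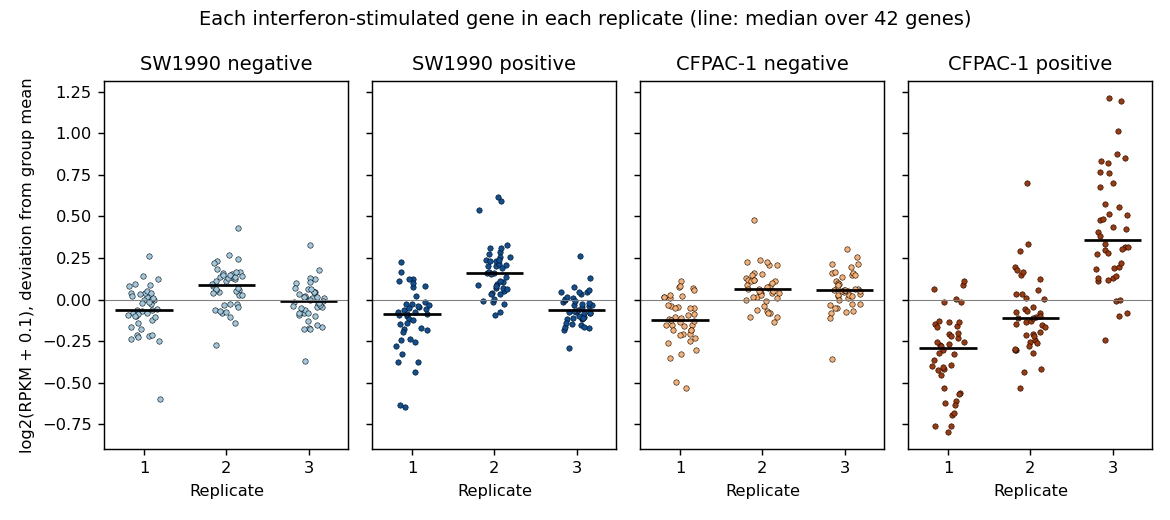
Deviation of each of the 42 genes from its group mean, in log2(RPKM + 0.1), in replicates 1 to 3 of each group, with a line for the median over genes. The median is 0.36 in CFPAC-1 positive replicate 3 and -0.29 in replicate 1, the widest gap among the 4 groups.

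Without CFPAC-1 positive replicate 3, 8 members were lower in CFPAC-1 positive cells, beside 4.48% of all genes, and none was higher, beside 5.89%. The 8 were the 5 called before and *MX2* (-1.37 ± 0.20, SE), *IFI27* (-1.28 ± 0.19) and *IFI44L* (-1.69 ± 0.15). The median over members was then -0.39, beside 0.06 over all genes, and 33 of 42 members lay below 0. The share of all genes below 0 was not computed without this replicate. Without CFPAC-1 positive replicate 1, the calls of *IFITM2*, *IFITM3* and *RSAD2* were lost and those of *IFITM1* and *GBP2* were kept. The share of all genes called was not computed for that fit. The calls of *GBP2* in both lines, of *BST2* in SW1990 and of *IFITM1* in CFPAC-1 were made in all 22 alternative settings that gave a value for them.

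The other genes of the pathway were taken from lists of genes by role. Of 21 interferon ligand genes in the table, 12 were at 0 in all samples and 5 others had at most 3 reads in any sample (a gene with reads in few samples may have been given too few), and *IFNA1* had at most 5. *IFNB1* was seen on 4 to 7 reads in each SW1990 sample and on 0 to 1 read in each CFPAC-1 sample. *IL29*, encoding interferon lambda, had 0 to 12 reads in SW1990 and 0 to 2 in CFPAC-1. *IFNE*, an epithelial type I interferon, was at 4.36 ± 1.43 RPKM in SW1990 negative and 1.37 ± 0.0765 in CFPAC-1 negative cells (SD, n = 3), on 38 to 173 reads, and was called higher in SW1990 in both gates (1.55 and 1.80). Only *IFNB1*, *IFNE* and *IL29* could be fitted. In negative cells 2 of the 3 (66.7%) were called higher in SW1990, and in positive cells 3 (100%) were. Of all genes 21.9% and 14.8% were. Only *IFNE* had more than 12 reads in any sample. No ligand that could be fitted was called by limma between positive and negative cells.

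Of the 6 receptor chains, *IL28RA*, the chain of the lambda receptor that other receptors do not share, rose in SW1990 positive cells. It was at 0.768, 0.716 and 0.929 RPKM in SW1990 negative and 3.22, 3.42 and 3.80 in SW1990 positive samples, and at 4.84, 4.20 and 4.17 in CFPAC-1 negative and 5.93, 4.90 and 6.02 in CFPAC-1 positive samples. The SW1990 negative samples were low and the other 9 were all higher. The log2 fold change was 1.99 in SW1990 and 0.34 in CFPAC-1, and the difference of 1.65 was called (limma adjusted p = 0.00018). *IFNGR1*, the ligand-binding chain of the gamma receptor, fell, at 51.3, 60.6 and 59.3 RPKM in SW1990 negative and 23.8, 28.1 and 26.2 in SW1990 positive samples (-1.13, limma adjusted p = 1.19e-05). CFPAC-1 values were 18.7, 17.0 and 15.0 in the negative and 12.5, 13.8 and 15.0 in the positive samples, and the difference of -0.84 was called (limma adjusted p = 0.00209). *IFNAR1*, *IFNAR2*, *IL10RB* and *IFNGR2* were not called by sort in either line. In negative cells *IFNAR1* differed by 0.64 and *IFNAR2* by 0.03 between lines, neither called.

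Of the kinases and STATs, *JAK1*, *JAK2*, *TYK2* and *STAT3* were not called by sort in either line. *JAK2* and *TYK2* were higher in SW1990 negative cells by 1.33 and 1.45, whereas *JAK1* (-0.49) and *STAT3* (-0.64) were not called. In positive cells *JAK2* was at 3.12 ± 0.164 RPKM in SW1990 and 0.899 ± 0.277 in CFPAC-1 (SD, n = 3). *TYK2* was at 8.94 ± 0.379 and 5.56 ± 1.56 RPKM in the same groups, a difference under 2-fold. The sort difference of *JAK1* between lines, -0.41, was called (limma adjusted p = 0.0134).

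Of 12 genes of nucleic acid sensing and its adaptors, 1 was higher and 1 lower in SW1990 positive cells and 1 was lower in CFPAC-1 positive cells, each of them 8.33% of the list, beside 4.59%, 7.48% and 4.13% of all genes. *IRF5*, a factor downstream of Toll-like receptors, rose by 1.62 and *IFI16*, a DNA sensor, changed by -1.33 in SW1990. *TMEM173*, which encodes the adaptor STING, went from 66.3 ± 6.24 to 18.9 ± 8.00 RPKM (SD, n = 3) in CFPAC-1 (-1.89, limma adjusted p = 0.000174). Of 7 negative regulators, only *SOCS3*, an inhibitor of JAK kinases, was called by sort. It was higher in SW1990 positive cells (1.01), close to the 2-fold limit. This is 14.3% of the list, beside 4.59% of all genes.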

How the data were processed

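RNA-seq was analysed from 12 samples in 4 groups of 3, assigned by the labels for line and GCTM-5. The deposited unit is RPKM. Per the study's methods, the authors mapped reads against GRCh37 and used QuasR to scale counts by gene length and library size. The annotation, the use of strand and the handling of reads matching several genes are not given in the sources used here. The study tested counts with TCC, whereas the deposited values are RPKM, so limma 3.58.1 (R 4.3.3) with a mean-variance trend was run on log2(RPKM + 0.1) over the 16236 genes whose mean was 0.1 RPKM or more, with 4 group means and Benjamini-Hochberg adjustment. The thresholds of the study (over 2-fold, p below 0.01) made a call; the difference between lines was called at an adjusted p below 0.05. Library totals and reads were recovered from the RPKM values of single-exon genes, and came out whole, within 0.01 of a read, for 100.0% of genes above 0. Totals ranged from 9969697 to 26159330 reads. The scripts were tested on simulated data. Values were given in every sample for members called by sort or in the difference, and for the gene of each role with the highest mean. Pathway genes were named when called by sort, up to 4 a list with the largest change, besides receptors, kinases and STATs. Other members given only by a mean or a difference, the ligands, *GBP4* in SW1990, *CCL5* and the line difference of *IDO1* were chosen after their values were seen. The members and lists were chosen with earlier results of these data known. Per the study's methods the sorts were made in triplicate, but the labels do not tie a replicate number to a sort. The main fit therefore did not pair samples. The correlation of deviations from group means was -0.06 to 0.18 over 6 same-numbered pairs, and over 0.1 in 2 of them, both in SW1990. Such correlations cannot decide whether same-numbered samples came from the same sort. There were 25 alternative settings. A gene of the pathway lists is not reported here.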

Additional observations from a re-analysis of the deposited data

Results flagged for a closer look

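The difference between the lines in the response to the sort was called for 8 of the 42 genes by limma's test of the difference itself. SW1990 minus CFPAC-1 was positive for *IFITM1* (1.37 on the log2 scale) and *IFIT2* (0.75). It was negative for *GBP1* (-1.23), *OAS3* (-1.22), *BST2* (-1.17), *DDX58* (-1.09), *SAMD9* (-0.80) and *SAMD9L* (-0.48). These shares, 4.76% and 14.3% of members, stood beside 9.16% and 17.8% of all genes. Groups of 3 samples were too small for a test of single samples that stand apart.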

How the results depend on the processing

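There were 77 results for single genes under the alternatives (1643 values in all). They covered the genes called by sort or in the difference between lines. For SW1990 against CFPAC-1 they also covered the gene of each role with the highest mean. Of these values 1604 kept their direction and their side of the threshold, 24 lost the call, 15 gained one and 0 changed sign. Other members did change sign. The difference between lines did so in 9 of 21 settings for *IFI6* and in 8 of 21 for *IFIT1*. No member was called higher in CFPAC-1 positive cells with a pseudocount of 1, median centring or quantile normalization (0 in each), or in 2 of the leave-one-out fits (0 to 1), since *OAS3* then fell under 2-fold. When each replicate was left out in turn, members lower in CFPAC-1 positive cells numbered 2 to 8, and those higher in the difference between lines 1 to 9 (9 without CFPAC-1 positive replicate 3, 1 without SW1990 negative replicate 1 or SW1990 positive replicate 2, and 4 without SW1990 positive replicate 1). That count was 5 with voom on recovered reads and 1 when a difference over 2-fold was also required. With p below 0.01 and no limit on fold, 9 members were lower in SW1990 positive cells (15.6% of all genes were), 4 higher and 11 lower in CFPAC-1 positive cells (19.8% and 11.8%), and 3 lower in SW1990 than CFPAC-1 in both negative and positive cells (24.9% and 25.7%). The median difference between lines, -0.03, had no stable sign: it was 0.12 with median centring, 0.03 with voom, and -0.18 to 0.14 over the leave-one-out fits (0.03 without SW1990 positive replicate 1 or CFPAC-1 negative replicate 1, 0.14 without CFPAC-1 positive replicate 3). The median over members in negative cells, SW1990 against CFPAC-1, was 1.57 with median centring and 1.69 to 1.83 when replicates were left out. That in positive cells was 1.49 to 1.75 (1.75 without CFPAC-1 positive replicate 3), and that of the CFPAC-1 sort -0.39 to -0.12. With the replicate block, calls were 0 higher and 3 lower in SW1990, 1 higher and 6 lower in CFPAC-1, and 3 higher and 8 lower in the difference, and no call of a member was lost; those gained were *IFI44L* in CFPAC-1 and the differences of *RSAD2*, *GBP2* and *HERC6* (limma adjusted p = 0.0029, 0.0296 and 0.0451). Each line fitted alone gives no value for comparisons across lines. Shares of all genes called were computed for the main fit and for the CFPAC-1 sort without CFPAC-1 positive replicate 3. Counts from the other fits have no such share beside them. The cause of these shifts was not tested. Leaving out a replicate also lowers the number of samples, and these were not told apart. Depth was least in CFPAC-1 positive replicate 3.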

Other observations

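Of 42 further interferon-stimulated genes listed besides the members, 40 were in the table and fitted. In negative cells 22 were higher and 3 lower in SW1990 than in CFPAC-1, and in positive cells 18 were higher and 3 lower. These are 55% and 7.5%, then 45% and 7.5%, of the 40, beside 21.9% and 15.0%, then 14.8% and 13.7%, of all genes. Their median log2 difference was 1.16 and 0.87. *IDO1*, which breaks down tryptophan, was at 50.9 ± 17.2 RPKM in SW1990 negative and 0.495 ± 0.129 in CFPAC-1 negative cells (SD, n = 3). *CCL5*, a T cell chemokine, was at 35.0 ± 6.78 and 0.107 ± 0.0489 RPKM, the latter on 2 to 4 reads a sample.

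By sort, 5 of the 40 were lower in SW1990 positive cells and 2 in CFPAC-1 positive cells, and none was higher. The lower genes are 12.5% and 5% of the 40, beside 7.48% and 4.13% of all genes, so that the share in CFPAC-1 was close to that of all genes. In SW1990 these were *GBP5* (-2.98), *IDO1* (-2.65), *TNFSF10*, encoding the death ligand TRAIL (-2.12), the chemokine gene *CXCL10* (-1.72) and *GBP4* (-1.62). In CFPAC-1 they were *TNFSF10* (-1.52) and *GBP4* (-1.39), both of them called in SW1990 also. *CXCL10* rested on 6 to 50 reads in SW1990 samples. The difference between lines was called for *GBP5* (-2.32, limma adjusted p = 0.000515), *IDO1* (-2.76, adjusted p = 0.00472) and *CXCL10* (-2.59, adjusted p = 0.00418). For *TNFSF10* (-0.60, adjusted p = 0.193) and *GBP4* (-0.23, adjusted p = 0.591) it was not.

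In SW1990 too the replicates differed in the members as a group. SW1990 positive replicate 2 was the highest of its group for 33 of 42 genes (78.6%, all genes 34.3%), and SW1990 negative replicate 2 for 27 (64.3%, all genes 26.3%).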
